A study of Ovis aries with 95 samples.

Results

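Gene expression in the brainstem of fetal sheep was compared between 80 and 100 d of gestation, using all 4 brainstem arrays labelled 100 d and all 4 labelled 80 d. These 8 arrays were chosen by their labels alone, from a series of 95 arrays. The series covers 4 brain regions (cortex, brainstem, hippocampus and hypothalamus) at fetal ages of 80, 100, 120, 130 and 145 d and in newborn lambs aged 1 d. The fetuses were untreated and carried no engineered allele, and the ewes showed no sign of labor. Some fetuses of the later group were a few days younger than their label, and each age group contained a pair of twins that the labels do not mark, so that the arrays of an age are not wholly independent animals. Each array carried Cy3-labeled RNA of 1 sample, and its values are levels, not ratios to a reference.

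The brainstem carries sensory and motor tracts and holds the cranial nerve nuclei and the neurons that drive breathing and blood pressure. Over mid-gestation its neurons complete their birth and migration, precursor cells leave the cell cycle, and oligodendrocytes, the glia that wrap axons in myelin, begin to mature. In the central nervous system this order runs from the spinal cord and brainstem forward, so that the brainstem matures ahead of the cortex. Bulk RNA was measured, so that fewer cells of a type and less RNA per cell cannot be told apart in any value given here.

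The label of the tissue was checked against patterning genes of the HOX family and against transmitter transporters. HOXA5, a patterning gene of the hindbrain and spinal cord, had a mean log2 level of 10.84 at 80 d and 10.77 at 100 d in brainstem, against 6.45 and 6.47 in cortex, 6.42 and 6.35 in hippocampus and 6.50 and 6.43 in hypothalamus. HOXC6, another member of the HOX family, lay at 8.73 and 9.08 in brainstem and between 6.41 and 6.79 in the other regions. The HOX values set the brainstem samples apart from the other regions but do not tell hindbrain from spinal cord. The share of spinal cord in the tissue was not tested. SLC6A4, the serotonin transporter of raphe neurons, lay at 7.18 and 7.09 in brainstem and between 6.47 and 6.55 elsewhere. SLC6A2, the noradrenaline transporter, did not set the brainstem apart, with 6.81 and 6.85 there and 6.76 to 6.96 elsewhere. No gene of a list of 41 neuronal structure and synapse genes had a named probe, and neuronal genes were read only through the lists of transmitter genes, neuropeptides and neurogenic factors.

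Between 72.6 and 88.5% of the gene spots were well above background on the 8 arrays, and no spot was saturated. The median raw intensity was lower at 100 d (212 to 267) than at 80 d (319 to 344), without overlap (two-sided exact permutation p = 0.0286, which is as low as groups of 4 can reach). Quantile normalization removes this shift, and its part in the results was not tested. The 4 arrays at 100 d were also less alike, with a lowest correlation to an array of their own age of 0.981 to 0.988, against 0.990 to 0.992 at 80 d.

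Of 12771 genes tested, 530 rose and 860 fell from 80 to 100 d (limma, Benjamini-Hochberg adjusted p under 0.05), which is 4.15% and 6.73%, or 10.9% in all. The median change over all genes was 0.00059 on the log2 scale. Among the genes that passed, the median rise was 0.66 and the median fall was -0.57, and 100 rose and 58 fell by more than 1 log2 unit. The 4 arrays of each age did not overlap for 464 of the genes that rose and 768 of those that fell, and over all tested genes 9.59% lay wholly higher and 13.8% wholly lower at 100 d, or 23.4% in all. The 8 arrays came from 3 slides that each held both ages.

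The count depended on single arrays. In 70.3% of the genes that passed, replicate 3 was the 100 d array farthest from the 80 d mean, and in 70.6% replicate 1 was the nearest. Without replicate 3 at 100 d only 526 genes passed, and without replicate 1 at 100 d 1924 did. Leaving out 80 d replicate 2, 3 or 4 gave 867, 822 and 893 genes. A newborn brainstem array, replicate 4, stood apart from its group, and 2784 genes passed with it left out, a setting chosen after seeing the data. With the scanner software's processed signal the share of rises among the genes that passed was 47.3%, against 38.1% here.

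Of the tested genes, 885 had a symbol, and 40 of these rose (4.52%) and 52 fell (5.88%), or 10.4% in all. The genes named below are the 12 largest rises and 12 largest falls among those with a symbol, a passing test and no overlap between the ages, the members of 28 gene lists that passed, and genes that the study names. Where a gene that passed had more than 1 probe, as 54 did, its probes all had changes of 1 sign, and in 31 of the 54 every probe passed on its own. For MYC and INHBA neither probe did. Each of the 54 genes was called on the mean of these same probes, so their shared sign is no separate support.

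**Figure D1:**
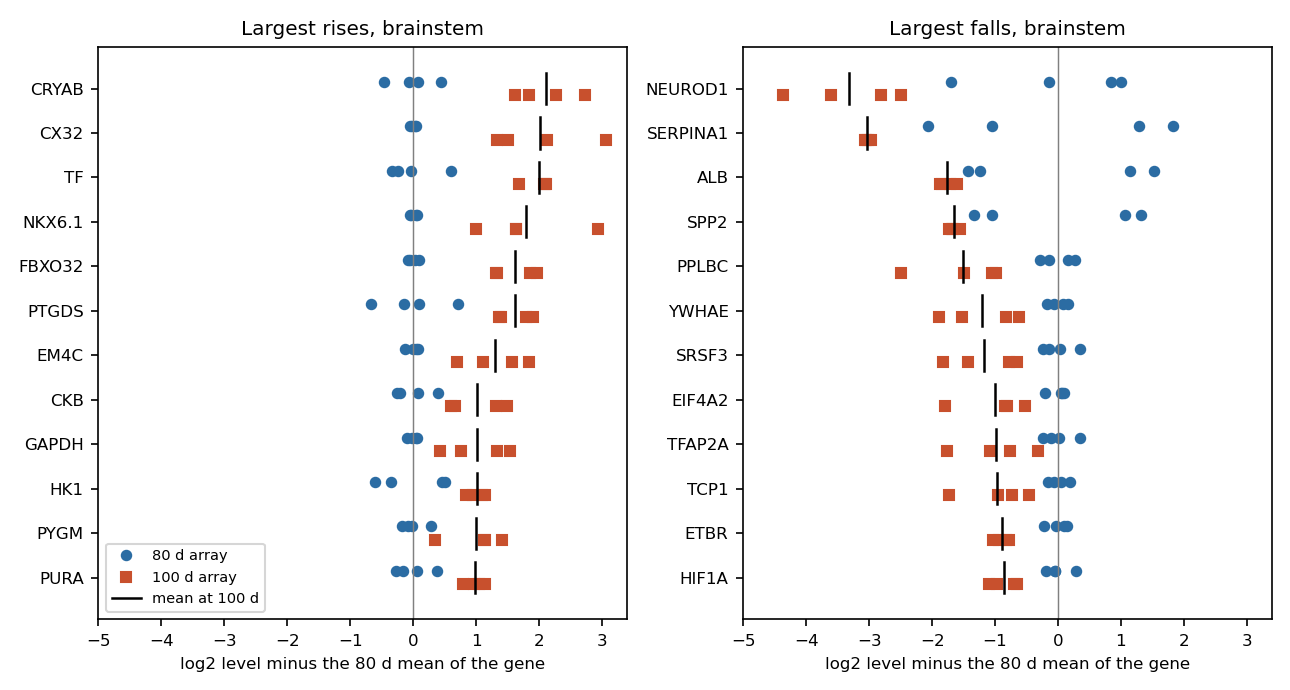
Log2 level of each array minus the 80 d mean of the same gene, for the 12 largest rises and the 12 largest falls in brainstem, with 4 arrays at 80 d (circles), 4 at 100 d (squares) and the 100 d mean (vertical line). The ages do not overlap for any of these genes, and SERPINA1, ALB and SPP2 split into a low and a high pair of arrays at 80 d.

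The largest rises among genes with a symbol were in genes of oligodendrocytes. CRYAB encodes alpha B crystallin, a small heat shock protein that oligodendrocytes hold in large amounts, CX32 encodes the gap junction protein connexin 32 of myelinating cells, and TF is the symbol of transferrin, the iron carrier that oligodendrocytes make in the brain. Each rose about 4-fold, and they were the only members of a list of 32 oligodendrocyte and myelin genes with a named probe. The count of 3 of 3 that rose (median change 2.01, where 4.15% of all genes rose) therefore repeats the ranking and is no separate support. Other genes of myelin proteins were not analysed here. The 60-base probes of CRYAB and CX32 are printed because the rise rests on 1 probe for each gene, and the capitals in the CRYAB probe mark the stop codon that ends its reading frame.
CRYAB: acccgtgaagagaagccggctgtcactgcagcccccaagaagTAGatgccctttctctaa
CX32: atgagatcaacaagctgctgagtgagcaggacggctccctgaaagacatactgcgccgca

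CRYAB read 10.99, 10.62, 10.07 and 10.47 on the 4 arrays at 80 d and 12.16, 12.37, 13.27 and 12.81 at 100 d (log2 level, replicates 1 to 4). The lowest 100 d array lay more than 1 log2 unit above the highest 80 d array, and the mean rose by 2.12 ± 0.22 (SE, n = 4 arrays per age; 4.33-fold; limma, adjusted p = 1.32e-05). CX32 read 7.21, 7.12, 7.19 and 7.15 at 80 d and 8.51, 8.68, 10.23 and 9.30 at 100 d. Its 80 d arrays were close together and near the dim end of the array, whereas the 100 d arrays spread widely with replicate 3 on top, and the rise was 2.01 ± 0.26 (4.02-fold; adjusted p = 0.000131). TF read 13.48, 13.57, 14.42 and 13.78 at 80 d and 15.89, 15.91, 15.93 and 15.50 at 100 d, a rise of 1.99 ± 0.25 (3.98-fold; adjusted p = 0.000129). The summed level of the 3 genes was 13638 to 23175 intensity units at 80 d and 54085 to 73442 at 100 d.

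On slides 1 to 3 CRYAB changed by 1.36, 2.30 and 2.57, CX32 by 1.34, 1.48 and 2.62 and TF by 2.37, 1.49 and 1.93. The sign within a slide is fixed by the lack of overlap between the ages, and these values describe only its size. PTGDS, the prostaglandin D2 synthase of the meninges, choroid plexus and oligodendrocytes, rose as well, from 14.63, 14.38, 15.25 and 13.86 to 15.90, 16.43, 15.92 and 16.33. Its change was 1.61 ± 0.35 (3.06-fold; adjusted p = 0.00611). TF and PTGDS are also made by choroid plexus. The choroid plexus gene TTR, transthyretin, ranged from 16.89 to 18.30 on the 3 arrays at 80 d that measured it and from 15.51 to 18.44 at 100 d, with full overlap and a change of -1.06 ± 0.89 (adjusted p = 0.522), and AQP1, the water channel of that tissue, changed by -0.23.

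NKX6.1 rose beside the oligodendrocyte genes. It encodes a homeodomain transcription factor that patterns the ventral hindbrain and spinal cord and helps specify motor neurons. NKX6.1 read 7.63, 7.54, 7.62 and 7.53 at 80 d and 8.58, 9.21, 10.51 and 9.21 at 100 d. The 80 d arrays lay close together, and each 100 d array was higher, most of all replicate 3. The rise was 1.80 ± 0.28 (3.48-fold; adjusted p = 0.000572).

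The largest fall among genes with a symbol was that of NEUROD1, a basic helix-loop-helix factor that drives newly born neurons to differentiate. NEUROD1 read 12.61, 11.06, 13.74 and 13.59 at 80 d and 10.26, 9.94, 8.39 and 9.14 at 100 d. The ages did not overlap, though 80 d replicate 2 stood well below the other 80 d arrays. Replicates 3 and 4 were the highest at 80 d, the same pair that was high for the plasma protein genes below. Over 21 refits the change of NEUROD1 ran from -3.88 to -2.40, and it passed in each. The mean fell by 3.32 on the log2 scale (SE 0.49; 9.96-fold lower; adjusted p = 0.000294), and each of its 2 probes passed. Within slides the change was -1.57, -3.80 and -4.82. Of 9 tested genes of neural progenitors and neurogenesis, NEUROD1 fell (11.1%, against 6.73% of all genes) and NKX6.1 rose (11.1%, against 4.15%). The other 7 did not pass, among them PAX6 (-0.63), ISL1 (-0.32) and VIM (-0.20), and the median change was -0.07.

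**Figure D2:**
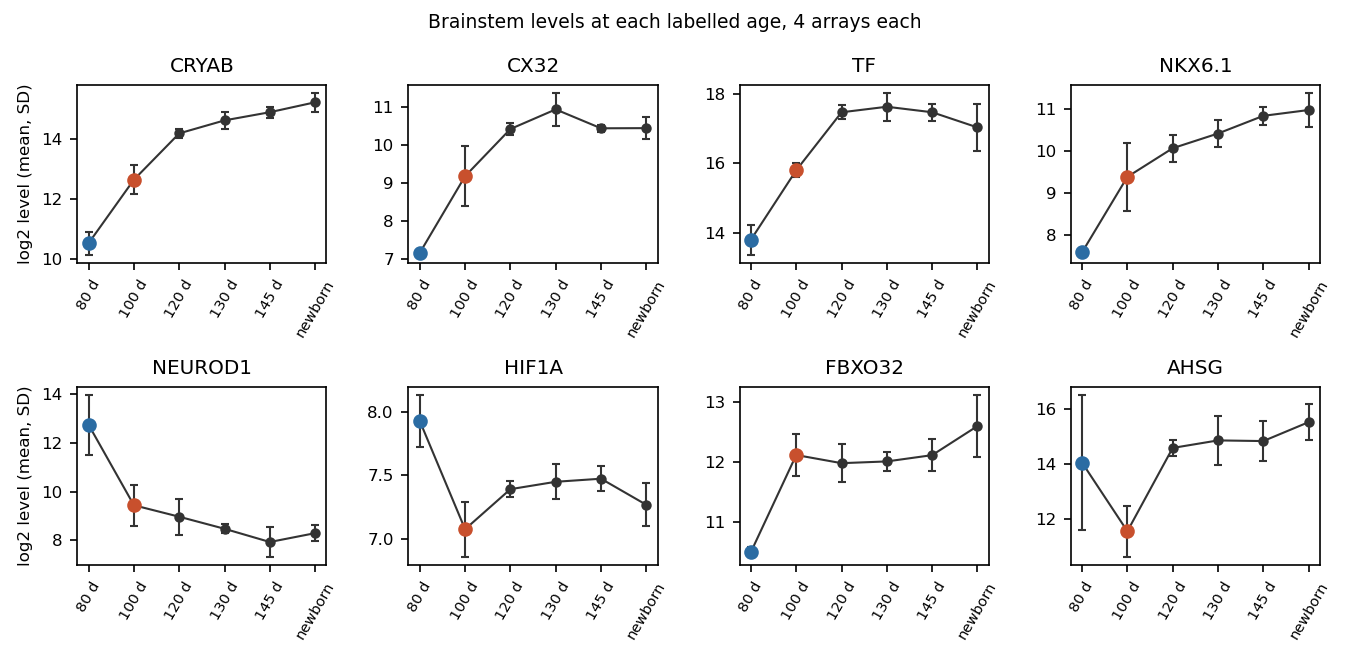
Mean log2 level with SD in brainstem at each labelled age (4 arrays each) for 8 genes, with 80 d and 100 d coloured. CRYAB, CX32, TF and NKX6.1 stood higher at every later age than at 100 d, and AHSG, low at 100 d, stood at 14.59 or above at each later age.

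At the later ages these genes stood as follows, given as a description. CRYAB had means of 14.20, 14.63, 14.90 and 15.23 at 120, 130 and 145 d and 1 d after birth, so that its level at 100 d was still low in its course. CX32 had 10.41, 10.93, 10.43 and 10.44, and TF 17.47, 17.63, 17.47 and 17.03, both at a plateau from 120 d. NEUROD1 had 8.96, 8.46, 7.92 and 8.28. FBXO32, the F-box subunit of a ubiquitin ligase known from muscle atrophy, reached its later level at 100 d already, with 12.12 there and 11.99, 12.01, 12.12 and 12.60 afterwards. It had read 10.42, 10.60, 10.46 and 10.54 at 80 d and 11.83, 11.83, 12.47 and 12.36 at 100 d, a rise of 1.62 ± 0.21 (3.07-fold; adjusted p = 0.000131).

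The change from 80 to 100 d was set against that in cortex and hypothalamus, to see which genes moved differently in the brainstem. The difference from cortex passed for 12 of 12534 genes (0.0957%) and that from hypothalamus for 3 of 12543 (0.0239%), in 1 limma fit over all 95 arrays. The named genes among them were CX32, CRYAB, NKX6.1, NEUROD1 and SERPINA1 against cortex and CX32 and NEUROD1 against hypothalamus. In a fit over the arrays of brainstem and the other region alone, the counts were 275 for cortex (2.19%) and 25 for hypothalamus (0.199%), and these named genes passed there too. SERPINA1 was near the dim end of the array in cortex at both ages, which left no room for a like fall. The labels do not say which brain regions came from 1 fetus, so regions were not paired. Hippocampus, with 3 arrays at 100 d, was not tested. There the mean of NEUROD1 also fell, from 13.02 at 80 d to 11.98 at 100 d, and that of CRYAB rose from 9.84 to 10.78. CX32 went from 6.87 to 6.73, NKX6.1 from 6.44 to 6.71 and SERPINA1 from 6.97 to 6.55.

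CX32 changed by 0.02 in cortex and 0.02 in hypothalamus, and its rise in brainstem was larger by 1.99 ± 0.32 than in either (adjusted p = 0.000122 against cortex and 0.000228 against hypothalamus). NEUROD1 changed by -0.31 in cortex and 0.12 in hypothalamus, and the difference was -3.01 ± 0.56 against cortex (adjusted p = 0.00209) and -3.43 ± 0.56 against hypothalamus (adjusted p = 0.000228). CRYAB changed by 0.36 in cortex, a difference of 1.75 ± 0.40 (adjusted p = 0.0363), and NKX6.1 by 0.07, a difference of 1.73 ± 0.39 (adjusted p = 0.0411). Against hypothalamus these 2 genes did not pass, with differences of 1.42 ± 0.40 and 1.54 ± 0.39 (adjusted p = 0.295 and 0.247). TF, which rose as much as CRYAB in brainstem, did not pass in either test, with a difference of 1.88 ± 0.79 from cortex (adjusted p = 0.865) and 0.55 ± 0.79 from hypothalamus. PTGDS changed by 1.84 in cortex and 1.23 in hypothalamus.

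**Figure D3:**
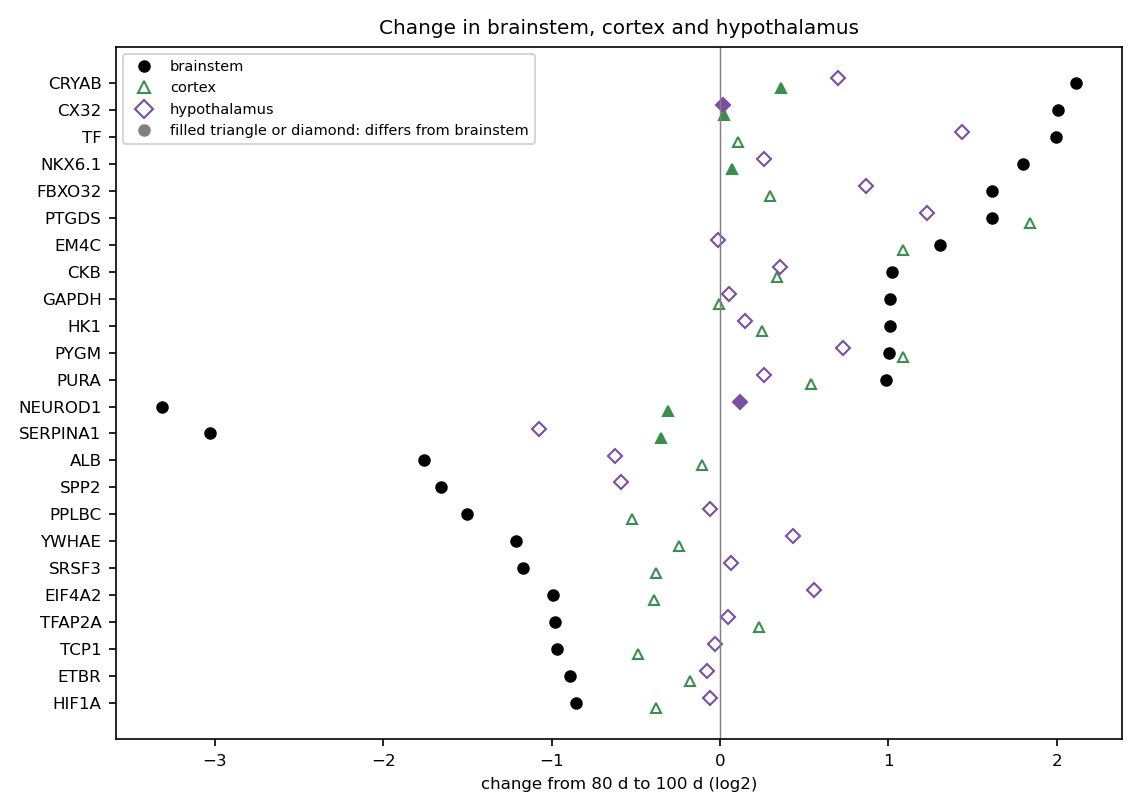
Change from 80 to 100 d (log2) of the 12 largest rises and 12 largest falls in brainstem (black), with the change of the same gene in cortex (triangles) and hypothalamus (diamonds); a filled triangle or diamond marks a difference from brainstem that passed. CX32 and NEUROD1 are filled for both regions, and CRYAB, NKX6.1 and SERPINA1 for cortex. No cortex value is drawn for SPP2, which was not tested there.

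Genes of plasma proteins made by the fetal liver fell, but the 80 d arrays disagreed with each other. SERPINA1 encodes alpha-1 antitrypsin, ALB albumin, SPP2 a secreted phosphoprotein and AHSG fetuin, a major protein of fetal plasma. SERPINA1 read 7.53, 8.55, 11.43 and 10.89 at 80 d and 6.58, 6.55, 6.53 and 6.63 at 100 d. ALB read 8.31, 8.49, 11.26 and 10.87 at 80 d and 8.13, 7.87, 7.89 and 8.02 at 100 d. In both genes 80 d replicates 3 and 4 stood more than 2 log2 units above replicates 1 and 2, and these in turn stood above every 100 d array.

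SERPINA1 fell by 3.03 (SE 0.51; adjusted p = 0.00092) and was well above background on 2 of the 4 arrays at 100 d, and ALB fell by 1.76 (SE 0.45; adjusted p = 0.0157). SPP2 had 6.75, 7.03, 9.39 and 9.15 at 80 d and was not well above background on any 100 d array, so that it was at least 2.83-fold higher at 80 d (adjusted p = 0.00786). AHSG had 11.29, 12.76, 16.57 and 15.63 at 80 d and 10.73, 12.05, 12.64 and 10.87 at 100 d, where the ages overlapped, and fell by 2.49 (SE 0.80; adjusted p = 0.0482). With 80 d replicates 3 and 4 left out, a choice made after seeing the data, the changes were -1.47 for SERPINA1 and -0.47 for SPP2, which still passed, and -0.43 for ALB (adjusted p = 0.347) and -0.45 for AHSG (adjusted p = 0.793). Within slide 1, which held 80 d replicates 1 and 2 and 100 d replicate 1, SERPINA1 changed by -1.46, ALB by -0.27, SPP2 by -0.37 and AHSG by -1.29. On the scanner software's processed signal, which does not narrow the changes of dim probes, SERPINA1 changed by -5.99. In the fit on the 8 arrays alone SERPINA1 passed (adjusted p = 0.0321), and ALB, SPP2 and AHSG did not (adjusted p = 0.0922, 0.079 and 0.145).

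The 2 SERPINA1 probes are printed because they check one another only in part: the capitals mark the 40 bases they share. Their changes were -3.00 and -3.06.
SERPINA1 probe 1: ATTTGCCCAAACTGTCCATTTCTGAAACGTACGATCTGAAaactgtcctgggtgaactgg
SERPINA1 probe 2: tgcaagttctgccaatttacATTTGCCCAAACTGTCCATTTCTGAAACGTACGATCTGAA

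The fall was not shared by the whole list of 22 plasma protein genes. Of 7 tested members SERPINA1, AHSG and ALB fell (42.9%, against 6.73% of all genes) and TF and SERPINC1 rose (28.6%, against 4.15%). TTR and APOA1 did not pass. SERPINC1, antithrombin, read 7.78, 7.84, 7.83 and 7.87 at 80 d and 8.48, 8.74, 8.80 and 8.54 at 100 d (0.81 ± 0.24; adjusted p = 0.0329). The fall of SERPINA1 differed from the change of -0.35 in cortex by -2.71 ± 0.54 (adjusted p = 0.00619, on the probe kept in both regions), and not from that in hypothalamus (adjusted p = 0.29). In cortex its mean over both probes was 6.82 at 80 d and 6.50 at 100 d, near the dim end of the array. A fall as large as in brainstem could not show there, so the difference does not make the fall particular to brainstem.

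**Figure D4:**
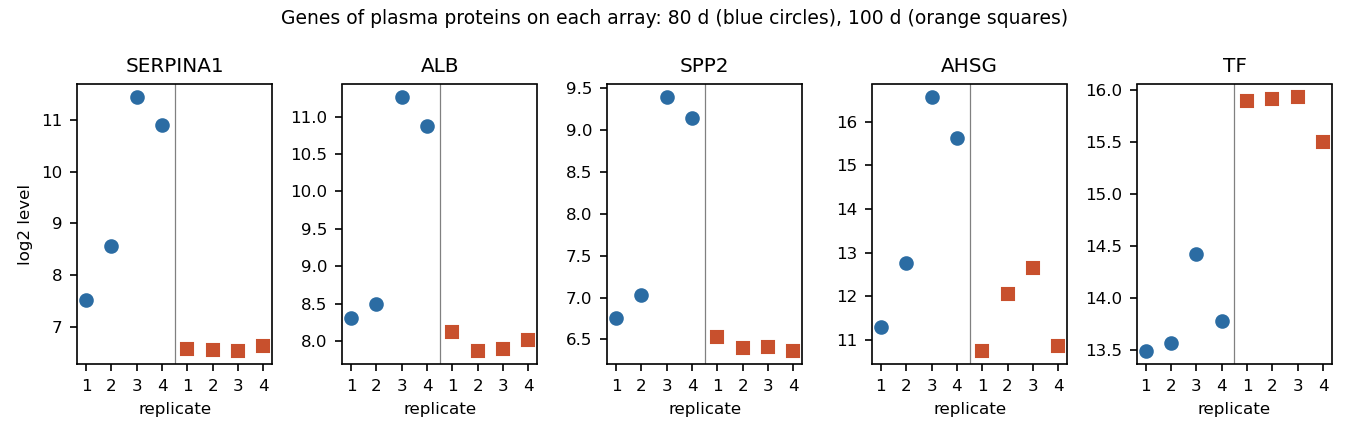
Log2 level of 5 plasma protein genes on each brainstem array, with the replicate number on the x axis, 80 d on the left (circles) and 100 d on the right (squares); each panel has its own y axis. SERPINA1, ALB, SPP2 and AHSG are high on 80 d replicates 3 and 4, and TF is higher on all 100 d arrays.

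Blood cell genes did not share this pattern in full. AHSP, the alpha hemoglobin stabilizing protein of red cell precursors, read 7.38, 8.08, 8.78 and 8.43 at 80 d and 7.22 to 7.48 at 100 d, a change of -0.83 ± 0.32 (adjusted p = 0.102), and so was also highest on 80 d replicates 3 and 4. HBB, beta hemoglobin, had 10.95 to 12.11 at 80 d and 12.32 to 13.90 at 100 d, a change of 1.44 ± 0.50 (adjusted p = 0.0692). Its 2 probes differed, with changes of 0.37 (adjusted p = 0.641) and 2.52 (adjusted p = 0.025), and HBB passed with the processed signal (1.64; adjusted p = 0.0279) and in the fit on the 8 arrays alone (adjusted p = 0.0315). In the reported fit none of the 3 tested erythroid genes passed, and their summed level was 2295 to 4834 intensity units at 80 d and 5419 to 15576 at 100 d. The part of blood in the plasma protein values was not tested.

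Some genes of energy metabolism rose, while most did not pass. Of 19 tested genes of glycolysis and mitochondrial energy, 4 rose (21.1%, against 4.15% of all genes) and none fell (against 6.73%), and the median change was 0.02. CKB, the brain creatine kinase that buffers ATP, read 13.48, 13.16, 12.83 and 12.88 at 80 d and 13.75, 14.41, 14.58 and 13.69 at 100 d (1.02 ± 0.21; adjusted p = 0.00372). HK1, the hexokinase that commits glucose to glycolysis in brain, read 9.60, 9.66, 8.55 and 8.79 at 80 d and lay between 9.98 and 10.29 on the 100 d arrays (1.01 ± 0.26; adjusted p = 0.0175). In both the ages were apart, but 80 d replicates 1 and 2 of HK1 were within 0.4 log2 units of the lowest 100 d array.

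GAPDH, the glycolytic dehydrogenase, rose by 1.01 ± 0.25 (adjusted p = 0.0144) and ATP5PD, a subunit of ATP synthase, by 0.75 ± 0.22 (adjusted p = 0.0341). Their means at 80 d were 8.11 and 7.66, far below that of CKB. PYGM, a glycogen phosphorylase, lies outside that list and rose by 1.01 ± 0.23 (adjusted p = 0.00702). LDHA, lactate dehydrogenase A, was lower on each 100 d array (11.36 to 11.78 against 12.12 to 12.38) without passing (adjusted p = 0.0723). Without 100 d replicate 3 the test was passed by CKB but no longer by ATP5PD, GAPDH or HK1. With 80 d replicates 3 and 4 left out, a choice made after seeing the data, CKB, HK1, GAPDH, ATP5PD and PYGM all lost the call.

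HIF1A, the oxygen-regulated subunit of hypoxia-inducible factor 1, fell. It read 7.74, 7.88, 8.22 and 7.88 at 80 d and 7.28, 6.96, 6.83 and 7.23 at 100 d, with a gap between the ages and a change of -0.85 ± 0.12 (1.81-fold lower; adjusted p = 0.000162). It was the 1 of 8 tested hypoxia-responsive genes that passed (12.5%, against 10.9% of all genes), and the list's median change was -0.04. VEGFA (0.61), SLC2A3 (-0.25) and EPAS1 (0.09) did not pass. The later means were 7.39, 7.45, 7.47 and 7.27, all above the 100 d mean of 7.07. The processed signal gave -1.73. Its probes share 20 bases, in capitals, and their changes were -0.78 and -0.93.
HIF1A probe 1: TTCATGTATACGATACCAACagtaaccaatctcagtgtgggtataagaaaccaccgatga
HIF1A probe 2: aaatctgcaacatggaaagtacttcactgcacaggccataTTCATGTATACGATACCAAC

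Of 14 tested genes of cell cycle and DNA replication, 5 fell (35.7%, against 6.73% of all genes), 1 rose and 8 did not pass, with a median change of -0.31. The 5 include CDKN1B, an inhibitor of the cycle. CCNA2, the cyclin of S phase and mitosis, read 8.72, 8.67, 9.02 and 9.02 at 80 d and 8.54, 8.24, 8.29 and 8.42 at 100 d (-0.49 ± 0.14; adjusted p = 0.0315), and its partner kinase CDK1 changed by -0.40 ± 0.12 (adjusted p = 0.0302). LMNB1, a lamin of the nuclear envelope, fell by 0.56 (SE 0.14; adjusted p = 0.0157) and YBX1, an RNA-binding protein grouped here with proliferation, by 0.83 (SE 0.24; adjusted p = 0.0312). The ages did not overlap in any of these 4 genes.

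The inhibitors of cyclin-dependent kinases moved in opposite directions. CDKN1C, which encodes p57, rose from 11.73, 11.72, 11.52 and 11.61 to 12.01, 12.58, 13.04 and 12.56 (0.90 ± 0.24; adjusted p = 0.0209), whereas CDKN1B, which encodes p27, fell by 0.60 (SE 0.19; adjusted p = 0.044), with overlap. PCNA, the clamp of DNA polymerase, changed by -0.24 ± 0.13 and did not pass, nor did AURKA, CDK2, CDK4 and CCND2. None of the 14 passed without 100 d replicate 3, and 3 passed with a normexp offset of 16.

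**Figure D5:**
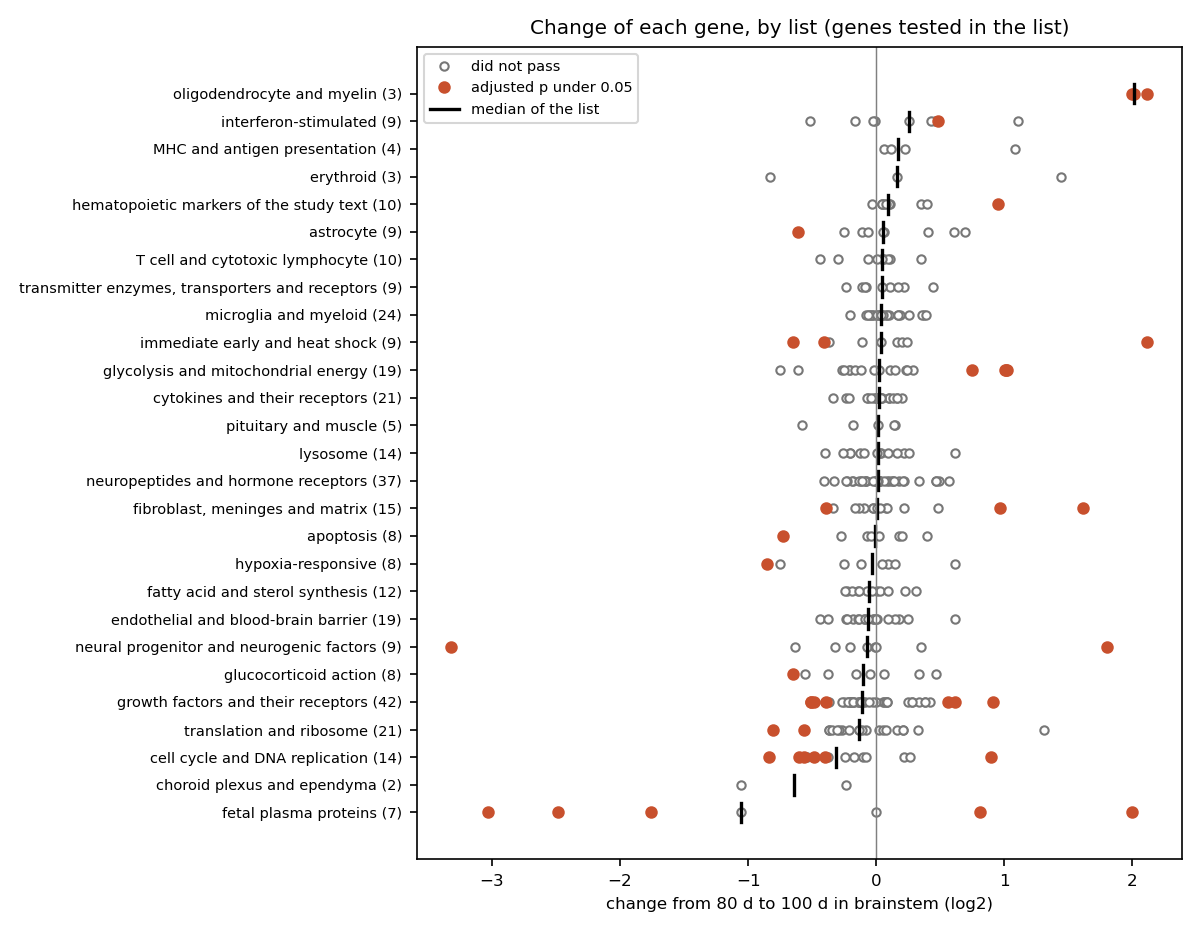
Change from 80 to 100 d in brainstem (log2) of each tested gene, by list, with the number tested in parentheses; filled points passed at adjusted p under 0.05 and the vertical mark is the median of the list. The oligodendrocyte list stands on the right, as its 3 tested members are also the largest rises with a symbol, while most medians lie within 0.15 of 0.

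Other large falls were in genes of varied function. YWHAE, a 14-3-3 adaptor protein, fell by 1.21 (SE 0.23; adjusted p = 0.00249), SRSF3, a splicing factor, by 1.17 (SE 0.25; adjusted p = 0.00582), EIF4A2, an RNA helicase of translation initiation, by 0.99 (SE 0.19; adjusted p = 0.00249), and TCP1, a subunit of the cytosolic chaperonin, by 0.97 (SE 0.21; adjusted p = 0.00531). PPLBC, a name given by the array file and left without a role here, was 2.84-fold lower (adjusted p = 0.000438). In these 5 genes the lowest array was 100 d replicate 3, with PPLBC at 8.95 there and at 9.95 to 10.47 on the other 100 d arrays. PABPC1, the poly(A)-binding protein, and RPL4, a ribosomal protein, were the 2 of 21 tested translation genes that fell (9.52%, against 6.73% of all genes). They fell by 0.81 and 0.56, and the list's median was -0.13. HSP90AA1, a chaperone that also holds the glucocorticoid receptor, fell by 0.65 (SE 0.16; adjusted p = 0.015), while the receptor gene NR3C1 changed by 0.06 without passing. HSP90AA1 was the 1 of 8 tested genes of glucocorticoid action that passed (12.5%, against 10.9% of all genes), with a list median of -0.10. HSP90AA1, MYC (-0.40) and CRYAB made up the 3 of 9 immediate early and heat shock genes that passed (median 0.03). Falls were 22.2% of that list and rises 11.1%, against 6.73% and 4.15% of all genes.

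Of 42 tested growth factor and receptor genes, 3 rose (7.14%) and 4 fell (9.52%), near the 4.15% and 6.73% of all genes, with a median change of -0.11. FGF1, a fibroblast growth factor of neurons, rose from 9.09, 9.08, 8.67 and 8.96 to 9.83, 9.31, 10.20 and 10.12 (0.91 ± 0.22; adjusted p = 0.0109), and FGFR1, a receptor of that family, fell by 0.51 (SE 0.14; adjusted p = 0.0212), with overlap. BMPR1B, a receptor of bone morphogenetic proteins, rose by 0.62 and INHBA, a subunit of activin, by 0.56. The receptor chains ACVR1 and ACVR2A, the latter a receptor of activin, fell by 0.51 and 0.48 (adjusted p = 0.0488 and 0.012), and ERBB2, a receptor tyrosine kinase, by 0.39, with 2 of its 4 arrays at 100 d well above background. All 7 lost the call without 100 d replicate 3. ETBR, the endothelin B receptor, read 8.68, 8.49, 8.85 and 8.81 at 80 d and 7.93, 7.88, 7.68 and 7.77 at 100 d, so that the ages lay apart by more than the spread of either (-0.89 ± 0.16; adjusted p = 0.00143). TFAP2A, a transcription factor of neural crest and hindbrain, fell by 0.98 (SE 0.22; adjusted p = 0.00731).

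Other rises were those of PURA, a nucleic acid-binding protein that neurons need (0.99 ± 0.23; adjusted p = 0.00853), and EM4C, a name of the array file without a role here (1.30 ± 0.28; adjusted p = 0.00487). COL2A1, a fibrillar collagen, rose by 0.97 (SE 0.30, limma, adjusted p = 0.0417). MMP2, a matrix protease, fell by 0.39 (SE 0.12, limma, adjusted p = 0.038). COL2A1 lost the call in 9 of 21 refits and MMP2 in 10, among them that on the authors' series table. An MMP2 probe did not pass on its own (limma, adjusted p = 0.215). COL2A1, MMP2 and PTGDS were the 3 of 15 tested fibroblast, meninges and matrix genes that passed (list median 0.0034). Rises were 13.3% of the list and falls 6.67%, against 4.15% and 6.73% of all genes. COL1A2 (0.22), COL3A1 (-0.09) and DCN (-0.13) did not pass.

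Astrocyte genes did not move together. EAAT1, the glutamate transporter of radial glia and astrocytes, fell from 8.59, 8.75, 8.84 and 8.50 to 8.46, 8.01, 7.59 and 8.18. Its change was -0.61 ± 0.17 (limma, adjusted p = 0.0217). It was the 1 of 9 astrocyte genes that passed (11.1%, against 10.9% of all genes), with a list median of 0.05. GFAP, the intermediate filament of astrocytes, read 10.93, 10.91, 10.33 and 10.59 at 80 d and 12.02, 10.45, 11.43 and 11.64 at 100 d, with 1 array of the later age inside the earlier range, and did not pass (0.70 ± 0.27; adjusted p = 0.104). EAAT2, the other glial glutamate transporter, changed by 0.06 and AQP4, the astrocyte water channel, by 0.40. The summed level of the 9 genes was 56134 to 79230 intensity units at 80 d and 62641 to 146480 at 100 d.

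No member passed in the lists of transmitter enzymes, transporters and receptors (9 tested, median change 0.04) and of neuropeptides and hormone receptors (37 tested, median 0.02). Outside these lists, and chosen after their values were seen, GRIA3, an AMPA-type glutamate receptor subunit, rose by 0.79 (SE 0.16; adjusted p = 0.00427) and MGLUR3, a metabotropic glutamate receptor, fell by 0.75 (SE 0.12; adjusted p = 0.000626), each without overlap. Among the listed AMPA subunits GRIA1 changed by 0.44, GRIA2 by 0.17 and GRIA4 by -0.23, none of which passed.

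Of 10 immune genes that the study follows and that have a named probe, 1 passed (10%), near the 10.9% of all genes. The study reported many of these from cortex or hippocampus. Of the progenitor cell markers that it names for brainstem (CD34, CD109, CD44, CD5 and CD9), only CD5 and CD9 are among the 10. The count is therefore no check of that brainstem set. CD9, a tetraspanin of many cell types including oligodendrocytes, rose from 11.61, 10.99, 11.80 and 12.04 to 12.10, 12.59, 12.92 and 12.63 (0.95 ± 0.27; adjusted p = 0.0258), and the median change of the 10 was 0.09. CD9 no longer passed without 80 d replicate 1 or 2 or 100 d replicate 2, 3 or 4 (adjusted p = 0.0511 to 0.111), and 1 of its 2 probes did not pass (adjusted p = 0.244). CD81, another tetraspanin, changed by 0.40 ± 0.17 (adjusted p = 0.136) but passed with the processed signal (0.61; adjusted p = 0.00729) and in the fit on the 8 arrays alone (adjusted p = 0.0435). The change of CD5, a surface protein of T cells, was 0.35 ± 0.19 (adjusted p = 0.253). CD1D, CD3D, CD3E, FCGR2B, IL10, ITGAM and TGFB1 changed by -0.03 to 0.11, with adjusted p of 0.736 to 0.945. FCGR2B was not well above background on any 100 d array.

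Likewise no gene passed among 24 of microglia and myeloid cells (median 0.04), 10 of T and cytotoxic cells (0.05), 21 cytokines and receptors (0.02), 4 of antigen presentation (0.17), 19 of endothelium and the blood-brain barrier (-0.06), 14 of the lysosome (0.02), 12 of fatty acid and sterol synthesis (-0.06), or 5 of pituitary and muscle (0.02). IRF3, a transcription factor of the interferon response, rose by 0.48 ± 0.13 (limma, adjusted p = 0.0245). It was the 1 of 9 interferon-stimulated genes that passed (11.1%, against 10.9% of all genes), with a list median of 0.26. ISG15, an interferon-induced protein, was higher on every 100 d array without passing (1.11; adjusted p = 0.335). Data were simulated with 200 of 12771 genes changed, independent noise and the spread pooled over all 24 brainstem arrays. They gave calls for 85% of genes changed by 1 log2 unit and 45% of those changed by 0.5, so that a change of the smaller size could be missed. The simulation left out the wider spread at 100 d and the pull of single arrays, so these shares are not rates for the real test.

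Most of the genes that moved have no symbol. Among these, and without overlap between the ages, the largest rises were 2.21 and 2.20 and the largest falls were -3.74 and -2.11. The transcript known as EE791984, which fell most, read 7.99, 9.20, 12.19 and 11.64 at 80 d and 6.51, 6.45, 6.57 and 6.55 at 100 d, with the same high pair of 80 d arrays as SERPINA1 and ALB. The transcript EE828192 did not show that split, with 11.14, 11.37, 11.36 and 11.44 at 80 d and 9.93, 9.39, 8.63 and 8.92 at 100 d (-2.11 ± 0.25; adjusted p = 4.51e-05). EE781956, the other of the largest rises, had 9.78, 9.74, 10.03 and 9.98 at 80 d and 11.55, 11.62, 12.94 and 12.25 at 100 d.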

How the data were processed

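Cy3-labeled brainstem RNA was hybridized to one-colour ovine arrays, and groups were taken from the sample labels. The authors deposited the scanner software's output for each array, with the mean intensity and local background intensity of each spot before normalization between arrays, its processed signal intensity, and other marks such as outlier flags, and a series table of normalized log2 values. The software version in the deposited headers is 10.1.1.1, and the study's methods name another. Intensities were background corrected (normexp, offset 50, which narrows the changes of dim probes) and quantile normalized over 95 arrays with limma 3.58.1 in R 4.3.3. Spots with an outlier mark were left out on their array, which left 151 probes without a value on at least 1 brainstem array. Probes at least 1.1 times the 95th percentile of 77 negative controls on at least 4 brainstem arrays were kept (13309 of 15008), and probes with 1 gene name were averaged. Of the 15008 probes, 1556 had a symbol, from the files or the RefSeq table of ARS-UI_Ramb_v3.0 (accessions matched 703 probes, gene identifiers 125, symbols 497 and older synonyms 20, and 211 kept the name in the file).

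All 24 brainstem arrays were fitted with 6 ages (lmFit, eBayes), the 100 d mean was set against the 80 d mean, and p was adjusted over all 12771 genes. The p values measure the spread between these arrays. Differences between regions came from a fit of all 95 arrays. A gene not well above background on any array of an age has only a bound there, taken against the lowest signal well above background on each array. On the simulated data, with their independent noise, 5.11% of calls fell on unchanged genes, which is not a rate of false calls for the real arrays. The numbers of replicates do not pair the arrays: deviations from the age means correlated at 0.149, -0.0712, -0.15 and -0.0067 for numbers 1 to 4. Named genes were the 12 largest rises and falls with a symbol, a passing test and no overlap, passing members of the lists with up to 4 others, and genes of the study's text. The comparison, the lists and this rule were chosen with earlier results of these data known. The alternatives were other background, scaling, filter, probe and fit settings, blocks for slide and replicate number, and leaving out single arrays. Some results are not reported here. Figures were drawn with matplotlib.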

Additional observations from a re-analysis of the deposited data

Results flagged for a closer look

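Over 136 groups of 4 arrays, 80 d and 100 d for each of 68 named genes, 8 held an array far from the other 3 by Dixon's ratio of gap to range, where chance gives about 5%. At 80 d these were EIF4A2 (ratio 0.871), LMNB1 (0.882) and LDHA (0.872), each with replicate 1 low, and CD3E (0.927) and ITGAM (0.976), each with replicate 3 low. At 100 d they were TF with replicate 4 low (0.919), and ERBB2 (0.979) and MYC (0.839) with replicate 1 high.

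The change from 80 to 100 d differed between brainstem and cortex for 12 genes and between brainstem and hypothalamus for 3 (limma, adjusted p under 0.05). Brainstem minus cortex was 1.75 for CRYAB, 1.99 for CX32, 1.73 for NKX6.1, -3.01 for NEUROD1 and -2.71 for SERPINA1, which was dim in cortex at both ages. Brainstem minus hypothalamus was 1.99 for CX32 and -3.43 for NEUROD1.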

How the results depend on the processing

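Of the 52 named genes that passed, 16 passed under every refit that tested them (21, or 20 for SERPINA1), among them CRYAB, CX32, TF, NKX6.1, FBXO32, PTGDS, NEUROD1, SERPINA1 and HIF1A, and none changed direction in a refit. ITGAM and CD1D, which did not pass, changed direction: ITGAM was 0.21 with the processed signal and -0.078 to 0.0057 with 1 array left out (0.0057 without 100 d replicate 3), and CD1D was -0.043 to 0.14 (-0.043, -0.0042 and -0.0076 without 80 d replicate 1 or 100 d replicate 2 or 4).

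Leaving out 1 of the 8 arrays gave 526 to 1924 genes, 201 to 737 rises and 325 to 1187 falls. Of the 52 named genes, 27 no longer passed without 100 d replicate 3, 21 without 80 d replicate 3, and 2 without 100 d replicate 1. It left 3 of 3 oligodendrocyte genes, 0 to 6 cell cycle genes, 1 to 5 energy genes, 0 to 8 growth factor genes and 2 to 4 plasma protein genes. The fit on the 8 arrays alone gave 2056 genes, 849 of them rises, with 3 plasma protein genes. The processed signal gave 953 rises and 3 cell cycle genes, and shifted the median of all genes by 0.068. An offset of 16 gave 3 cell cycle genes. With 2 settings chosen after seeing the data, the newborn array left out gave 2784 genes (1028 rises, 1756 falls), and 80 d replicates 3 and 4 left out gave 276 genes (113 rises, 163 falls), with 0 cell cycle, 0 energy, 1 growth factor and 2 plasma protein genes.

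The slide as a block gave 1241 genes and the replicate number as a block 1405, of which 1286 were shared with the fit without the block. With the replicate block ACVR1, BMPR1B and COL2A1 no longer passed, and with the slide block ACVR1, ATP5PD, CDKN1B and SERPINC1. The fits over 2 regions gave 275 genes for cortex and 25 for hypothalamus. The causes of these shifts were not tested, beyond the fewer arrays in some fits. Signal over background limits SPP2, SERPINA1, ERBB2 and FCGR2B at 100 d.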
